A study of Mus musculus with 27 samples.

Results

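Voltage-gated sodium and calcium channels are assembled from a pore-forming subunit and auxiliary subunits that set where the channel sits in the membrane and how it opens and closes. Sodium channels start and carry the action potential, and calcium channels couple electrical activity to transmitter release, gene expression and rhythmic firing. IgLON5 is a neuronal surface adhesion protein, and the study placed it in membrane clusters of cultured neurons together with auxiliary channel subunits. The transcripts of these channels are described here in the brains of mice that received antibodies against IgLON5. The genes were taken by name from the mouse gene annotation GENCODE M21, as protein-coding genes for sodium channel subunits (Scn) and for the pore, α2δ, β and γ subunits of calcium channels (Cacna1, Cacna2d, Cacnb, Cacng). This gave 40 genes out of the 55487 rows of the count table: 10 sodium channel pore subunits, 4 sodium channel β subunits, 10 calcium channel pore subunits, 4 α2δ subunits, 4 calcium channel β subunits and 8 γ subunits. Several γ subunits act mainly as partners of AMPA-type glutamate receptors rather than of calcium channels.

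The animals were male wild-type C57Bl/6J mice, 8 weeks old, infused through an osmotic pump into the right lateral ventricle at 0.25 µl/h for 14 days. They received α-IgLON5#1, a polyclonal pool of human autoantibodies against IgLON5 purified from patient plasma (n = 4 cortices and 4 hippocampi), the human control IgG pCtrl (n = 5 cortices and 4 hippocampi) or PBS (n = 5 cortices and 5 hippocampi). The labels call pCtrl a non-reactive monoclonal antibody, while the study's text describes IgG from a healthy person. Bulk RNA of the contralateral cortex and hippocampus of 14 mice was sequenced as 27 libraries, and 13 mice gave both tissues. Library totals ran from 19385642 to 58550621 counts (median 34061205). Levels are given as CPM, which scales counts to the normalized library size, and levels of different genes are compared only as CPM per kb of annotated exon.

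All 4 pCtrl hippocampi scored higher for cortical genes than any PBS hippocampus, on a score that sets 100 genes enriched in PBS cortex against 100 enriched in PBS hippocampus and holds no channel gene. On this log2 scale the 14 cortices ran from 1.79 to 2.78, the PBS hippocampi from -1.65 to -0.85 and the α-IgLON5#1 hippocampi from -1.60 to -0.73. The α-IgLON5#1 hippocampi of mice 16 and 17, at -0.73 and -0.82, also scored higher than any PBS hippocampus. The pCtrl hippocampi of mice 10 and 37 stood apart from all other hippocampi at 0.13 and 0.78, against -0.80 for mouse 15 and -0.68 for mouse 75. The summed level of 6 hippocampal marker genes was 651 to 1027 CPM in PBS, 656 to 857 CPM in α-IgLON5#1 and 279 to 795 CPM in pCtrl hippocampi. Not only cortical markers were raised in pCtrl against PBS hippocampi. Of 5 thalamic markers 5 were higher, at a median log2 fold change of 0.67, and of 5 cortical markers 4, at 0.53. None of these markers had an adjusted p under 0.05 in edgeR's test. The labels name neurons as the cell type, but the samples also held glial RNA: the 6 microglial markers summed to between 243 and 734 CPM over the 13 hippocampi. In bulk tissue, fewer cells of a type and less RNA per cell cannot be told apart.

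Of the 40 genes, 38 had at least 10 counts in at least 4 libraries and were tested. Scn4a and Cacng1, which encode subunits of skeletal muscle channels, failed this filter with at most 10 and 6 counts in any library. The sensory neuron channels Scn10a and Scn11a and the muscle channel Cacna1s passed it but stayed at or below 28 counts, so their fold changes rest on few reads.

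Cacng7, a γ subunit, was among the most abundant channel transcripts per kb in PBS cortices, at 73.0 ± 10.9 CPM per kb (SD, n = 5), together with the sodium channel β subunit Scn2b at 68.2 ± 3.56 and the calcium channel β subunit Cacnb3 at 56.1 ± 4.44. The ranges of Cacng7 and Scn2b overlapped. In PBS hippocampi Scn2b was at 62.9, Cacng7 at 60.8, Cacng8 at 47.9, Cacnb3 at 45.8 and Scn3b at 43.9 CPM per kb, and each of these overlapped with the next one named. Of the 39 neighbouring pairs in the order of all 40 genes, 27 overlapped in cortex and 31 in hippocampus, so that much of the order is not resolved by 5 mice. The levels per kb of 34 genes are shown by tissue.

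**Figure D1:**
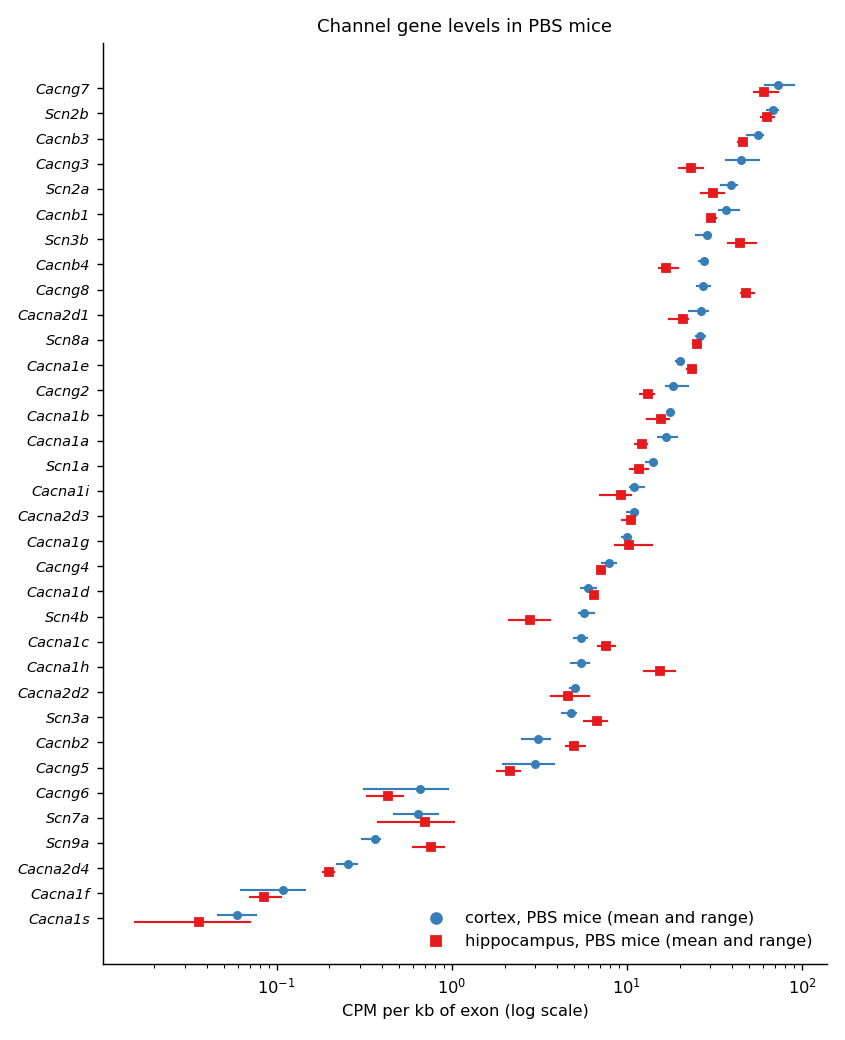
Mean level (points) and range over 5 mice (lines) of 34 channel genes in cortex and hippocampus of PBS mice, in CPM per kb of exon on a log axis, ordered by the cortical mean. Cacna1h, Cacng8, Scn3b and Scn9a lie farther right in hippocampus, whereas Scn4b, Cacnb4 and Cacng3 lie farther right in cortex.

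Among the sodium channel pores, Scn2a, the channel of the axons of excitatory neurons, made up 45.9% ± 1.24 of the summed level per kb in PBS cortex (SD, n = 5). Scn8a, the main channel of mature axon initial segments and nodes of Ranvier, made up 30.3% ± 1.46, and Scn1a, which predominates in inhibitory neurons, 16.4% ± 0.460. In PBS hippocampus these shares were 40.6% ± 1.79, 32.9% ± 1.37 and 15.3% ± 0.843, while Scn3a, best known from the developing brain, took 8.91% ± 1.37 against 5.57% ± 0.297 in cortex. The calcium channel pores were spread more evenly. Cacna1e, which forms R-type channels, had the highest share in both tissues, with 21.7% ± 0.864 in cortex and 23.4% ± 1.54 in hippocampus. Cacna1h, a low-voltage-activated T-type channel, held 5.88% ± 0.646 of the calcium pore level in cortex and 15.4% ± 2.48 in hippocampus. These shares divide by the length of all annotated exons of a gene, which can exceed the length of the transcript in use.

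In PBS mice 24 of the 38 genes tested differed between cortex and hippocampus (edgeR's quasi-likelihood test, adjusted p under 0.05 over 20271 genes), while 26.7% of all genes tested did. Of these, 16 were higher in cortex (background 14.1%) and 8 higher in hippocampus (background 12.7%). The differences were mostly below 2-fold, which 5 genes passed against 5.57% of all genes. Scn10a and Scn11a, which are in the counts of 24, 16 and 5, had passed the count filter through cortex, where they were higher, with 5 and 4 cortices but only 1 and 0 hippocampi at 10 or more counts. Without them 22 of 36 genes differed, 14 higher in cortex and 8 higher in hippocampus, and 3 passed 2-fold. Of 8 neuronal markers, 7 were higher in PBS cortex and 6 were called higher. The median log2 fold change was 0.35 for these markers and 0.27 for the 38 channel genes. The part of neuronal content in the channel differences was not tested. Of the 24 genes, 23 had the same sign in both other sets of mice, or 21 of 22 without Scn10a and Scn11a. Cortex and hippocampus differed in 21 genes in pCtrl mice (background 19.9%) and in 19 genes in α-IgLON5#1 mice (background 23.9%), or 21 and 17 without Scn10a and Scn11a. The 3 sets of mice share no animals, and 15 genes were called in all of them, always in the same direction (9 higher in cortex and 6 higher in hippocampus), against 11.9% of all genes tested. No gene was called in opposite directions.

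Cacna1h had the largest hippocampal excess among genes with more than a few counts. Its level was 50.3, 50.9, 46.8, 59.3 and 58.0 CPM in PBS cortices and 183, 122, 134, 157 and 159 CPM in the hippocampi of the same mice 14, 32, 33, 38 and 74. No hippocampus overlapped with a cortex, in any of the 13 mice with both tissues. The log2 fold change of cortex against hippocampus was -1.51 ± 0.12 (SE) in PBS mice (adjusted p = 2.13e-09), -1.22 in pCtrl mice and -1.53 in α-IgLON5#1 mice.

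Cacng8, a γ subunit known as the AMPA receptor partner of the hippocampus, was at 112, 113, 106, 106 and 125 CPM in PBS hippocampi and between 59.1 and 69.5 CPM in PBS cortices. Its log2 fold change was -0.81 ± 0.09 (SE, adjusted p = 2.94e-07). Scn3b, an auxiliary β subunit, was at 206 to 297 CPM in PBS hippocampi and 136 to 166 CPM in PBS cortices, a log2 fold change of -0.63 ± 0.10 (SE, adjusted p = 4.95e-05), and it was higher in the hippocampus of all 13 mice. The groups did not overlap for either gene. Scn9a, the sodium channel best known from pain-sensing neurons, was low in both tissues, at 3.90 to 4.95 CPM in cortex and 7.68 to 11.6 CPM in hippocampus, and differed by -1.07 on the log2 scale. The calcium channel β subunit Cacnb2, Scn3a, the L-type pore Cacna1c and Cacna1e completed the hippocampal side, with log2 fold changes of -0.67, -0.50, -0.48 and -0.23.

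On the cortical side, Scn4b, the β subunit linked to resurgent sodium current, was at 26.6, 27.2, 27.8, 28.6 and 32.2 CPM in PBS cortices and at 12.997, 18.1, 14.4, 10.5 and 13.4 CPM in the hippocampi of the same mice. All cortices were higher, by a log2 fold change of 1.03 ± 0.16 (SE, adjusted p = 2.61e-05). Cacng3, another AMPA receptor partner, was higher in cortex by 0.96 and Cacnb4, a calcium channel β subunit, by 0.72, and neither overlapped between tissues. Cacng2, the γ subunit known as stargazin, Cacna1a, the pore of P/Q-type channels at nerve terminals, Scn2a, Cacna2d1, Cacnb3, Cacnb1, Scn1a, Cacng7, Cacna1i and Cacna1b were higher in cortex by between 0.18 and 0.47 on the log2 scale. The largest fitted differences, 3.55 for Scn10a and 2.45 for Scn11a, came from 6 to 28 and 4 to 16 counts in the PBS cortices and from 0 to 2 and 1 to 5 counts in the PBS hippocampi. Scn8a, Scn2b, Cacna2d2, Cacna2d3, Cacna1d and Cacna1g did not pass the test in PBS mice. For Scn8a, the interval of the difference ran only from -0.06 to 0.15 on the log2 scale.

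**Figure D2:**
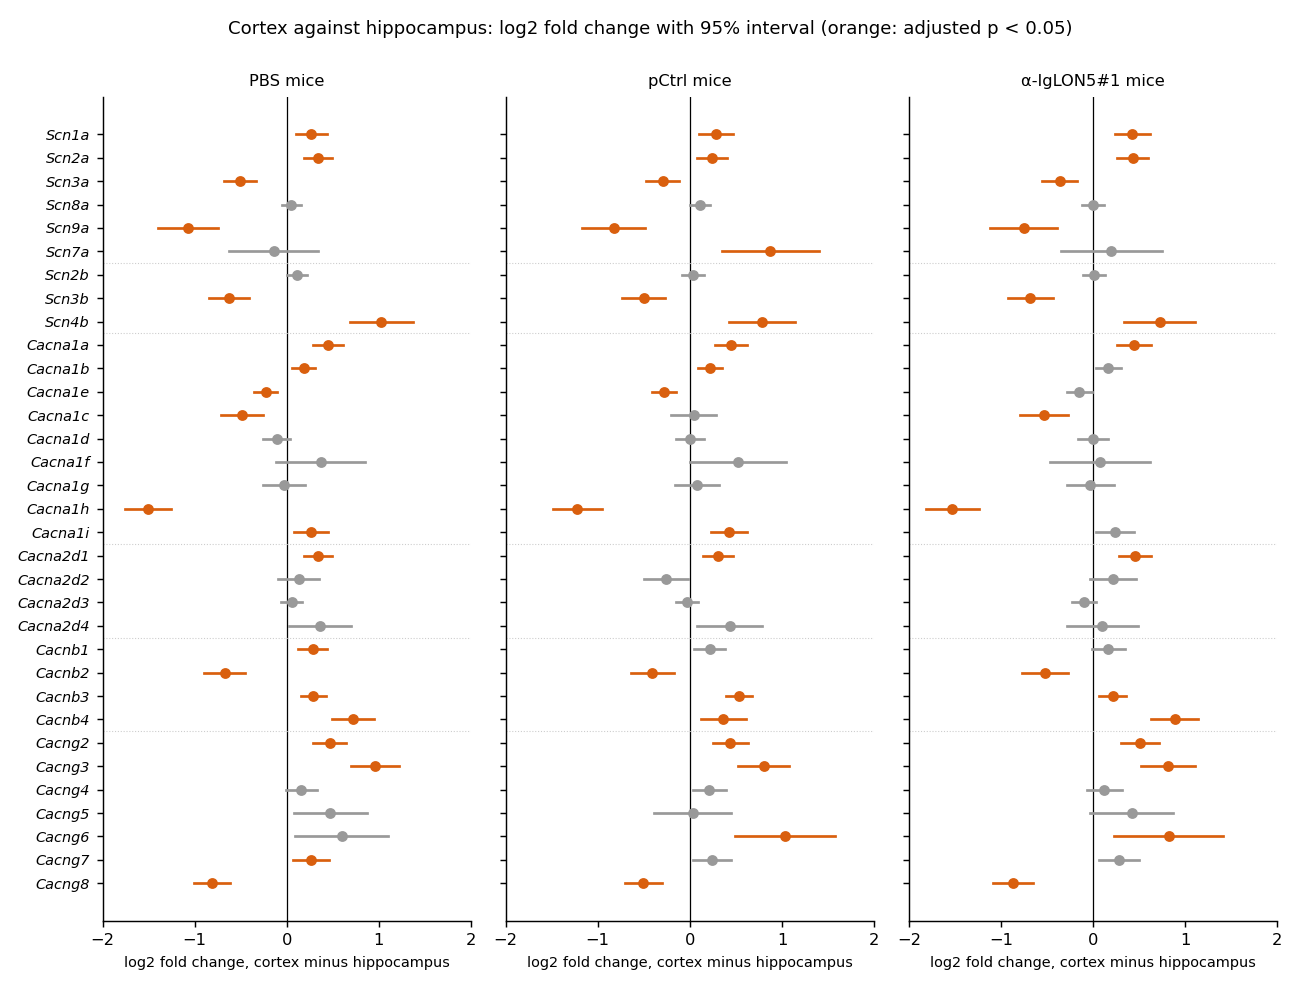
Log2 fold change of cortex against hippocampus (points) with 95% intervals (lines) for 33 channel genes in PBS, pCtrl and α-IgLON5#1 mice. Genes with an adjusted p under 0.05 are orange, and Scn10a, Scn11a and Cacna1s, which have wide intervals, are among the tested genes that are not drawn. Cacna1h lies between -1.22 and -1.53 in the 3 panels, while Cacna1c lies at -0.48, 0.04 and -0.53.

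Among the 24 genes called in PBS mice, Cacna1c was the 1 that did not keep its sign. It was lower in cortex in PBS (log2 fold change -0.48, adjusted p = 0.0015) and in α-IgLON5#1 mice (-0.53, adjusted p = 0.0022), but not in pCtrl mice (0.04, 95% interval -0.20 to 0.29, adjusted p = 0.85). Scn7a, called in pCtrl mice (0.87, adjusted p = 0.015), was at -0.14 in PBS and 0.20 in α-IgLON5#1 mice. Across all 13 mice Cacna1c was higher in the hippocampus of 11, and the other 2 were pCtrl mice 10 and 37. Of the 38 genes, 11 were higher in cortex in all 13 mice (8.49% of all genes tested), or 10 without Scn10a, and 4 higher in hippocampus in all 13 (7.09%).

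Several of these genes are neighbours in the genome. On chromosome 2 (GRCm38), 5 sodium channel pore genes lie in a row: Scn3a (65457118 to 65567627), Scn2a (65620771 to 65767447), Scn1a (66270778 to 66440840), Scn9a (66480080 to 66634962) and Scn7a (66673425 to 66784914). Scn2a and Scn1a lie farther apart than the other neighbours of this row, whose gaps are 53144, 39240 and 38463 bases. Genes of this row differed in both directions between the tissues: Scn3a and Scn9a were higher in hippocampus, Scn2a and Scn1a, which follow each other, higher in cortex, and Scn7a, which encodes a sodium-sensing relative of the channels, did not pass the test in PBS mice. On chromosome 9, Scn2b (45117782 to 45130070) and Scn4b (45138395 to 45154152) lie 8325 bases apart on the same strand. Only Scn4b passed the test, while Scn2b differed by 0.12 (95% interval 0.01 to 0.23, adjusted p = 0.11). On chromosome 7, Cacng7 (3332955 to 3368221) was higher in cortex and Cacng8 (3390683 to 3415648), its next neighbour among these genes, higher in hippocampus.

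The 250 bases before the start of Scn2a, Scn1a and Scn9a are given to show the upstream sequence of 2 genes of this row that were higher in cortex, Scn2a and Scn1a, and of 1 that was higher in hippocampus, Scn9a (RefSeq starts, GRCm38.p6, 5′ to 3′ on the strand of the gene). For Scn2a, which has 2 such starts, the one at the annotated 5′ end of the gene is shown. Capitals mark CG dinucleotides, the sites of DNA methylation.
Scn2a: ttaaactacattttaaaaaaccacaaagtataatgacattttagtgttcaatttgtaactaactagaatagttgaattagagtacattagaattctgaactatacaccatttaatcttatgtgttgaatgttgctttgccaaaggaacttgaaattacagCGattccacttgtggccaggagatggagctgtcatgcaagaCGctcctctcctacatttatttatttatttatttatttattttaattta
Scn1a: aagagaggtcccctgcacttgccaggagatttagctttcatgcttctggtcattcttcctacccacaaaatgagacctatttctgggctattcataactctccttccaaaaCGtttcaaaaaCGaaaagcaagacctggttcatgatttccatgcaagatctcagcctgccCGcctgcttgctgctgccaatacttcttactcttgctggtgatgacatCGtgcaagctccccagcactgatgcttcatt
Scn9a: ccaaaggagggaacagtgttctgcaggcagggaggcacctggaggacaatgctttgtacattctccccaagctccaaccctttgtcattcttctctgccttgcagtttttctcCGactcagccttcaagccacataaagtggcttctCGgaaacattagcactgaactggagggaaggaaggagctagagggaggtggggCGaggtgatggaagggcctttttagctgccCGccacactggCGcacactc

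The first sequence is chr2:65620519-65620768 on the plus strand, the second chr2:66440838-66441087 and the third chr2:66634963-66635212, both on the minus strand. They held 2, 4 and 5 CG dinucleotides at a GC content of 29.6%, 46.8% and 54.4%. The median over all 32851 windows of this kind was 6 CG dinucleotides and 52.4% GC, and over the 41 windows of 30 channel genes it was 8 and 56.8%. A search of both strands for the cyclic AMP response element TGACGTCA, for its core TGACG, which lies within it, for the left arm TTCAGCACC of the RE1 element and for the GC box GGGCGG gave no match in these 3 sequences. The core was found in 6 of the 41 channel windows (14.6%) against 17.8% of all windows, and the GC box in 15 (36.6%) against 32.7%. A match or its absence describes these letters only.

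The treatments were compared for differences in channel transcripts between mice infused with α-IgLON5#1 and each control. Against PBS, none of the 38 genes passed the test in either tissue. In hippocampi, α-IgLON5#1 against PBS gave 0 calls by edgeR and by DESeq2, and 3 genes had an unadjusted p below 0.05 (background 15.3%), while 4.29% of all genes were called. In cortex there were 0 calls by either tool and 2 genes at an unadjusted p under 0.05 (background 9.26%), while 3.05% of all genes were called. The 95% interval of the change was within 1.5-fold for 30 of 38 genes in hippocampus and 32 of 38 in cortex, and within 2-fold for 34 in each. Cacna1s, Scn10a and Scn11a were too rare for such a limit.

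Against pCtrl, 4 genes passed the test in hippocampi, which is 10.5% of the 38 and compares with 7.01% of all genes tested. Cacna1c, Cacna1h and Cacng8 were higher in α-IgLON5#1 (background for higher 4.23%) and Cacnb4 was lower (background for lower 2.78%). None of them passed 2-fold, which 2.45% of all genes did. In a fit of only these 2 groups the log2 fold changes were 0.47 for Cacna1c, 0.49 for Cacna1h, 0.36 for Cacng8 and -0.60 for Cacnb4, but none was called (adjusted p from 0.113 to 0.216 by edgeR). Cacna1h and Cacnb4 are 2 of the 5 genes whose groups did not overlap. The 3 others were Cacnb3, Cacna1f and Cacna2d2 (background 6.68% for groups above and 5% for groups below). Sequencing depth also separated the 2 groups, at 19428512 to 32776892 counts in α-IgLON5#1 and 39479753 to 52212204 counts in pCtrl hippocampi. The part of depth in these differences was not tested.

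Cacna1c (chromosome 6, 118587240 to 119196418) encodes the main L-type pore of the brain, which carries calcium signals to the nucleus. It was at 194, 180.0, 139 and 136 CPM in the α-IgLON5#1 hippocampi of mice 8, 9, 16 and 17, at 115, 140.4, 88.8 and 122 CPM in the pCtrl hippocampi of mice 10, 15, 37 and 75, and at 145 to 181 CPM in the 5 PBS hippocampi. The pCtrl group was the one that stood apart, below all 5 PBS libraries and overlapping with α-IgLON5#1 only through mouse 15. The log2 fold change was 0.48 ± 0.12 (SE, adjusted p = 0.020) against pCtrl and 0.00 against PBS (95% interval -0.24 to 0.25).

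Cacna1h (chromosome 17, 25374285 to 25433783) was at 147, 175, 147 and 144 CPM in α-IgLON5#1, at 100.2, 141, 74.5 and 118 CPM in pCtrl and at 122 to 183 CPM in PBS hippocampi. All α-IgLON5#1 values exceeded all pCtrl values and lay within the PBS range. The log2 fold change was 0.50 ± 0.13 (SE, adjusted p = 0.023) against pCtrl and 0.02 against PBS (95% interval -0.24 to 0.28). Cacng8 was at 111, 136, 95.03 and 106 CPM in α-IgLON5#1, 82.6, 98.3, 66.2 and 102 CPM in pCtrl and 106 to 125 CPM in PBS hippocampi. Again the pCtrl values lay below all PBS values, and the log2 fold change was 0.36 ± 0.10 (SE, adjusted p = 0.036) against pCtrl and -0.01 against PBS (95% interval -0.21 to 0.20).

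Cacnb4 (chromosome 2, 52428320 to 52676831), a β subunit that brings calcium channel pores to the membrane and whose loss causes epilepsy and ataxia in mice, went the other way. It was at 119, 91.3, 163 and 141 CPM in α-IgLON5#1, at 203, 170.0, 237 and 172 CPM in pCtrl and at 136 to 176 CPM in PBS hippocampi. All α-IgLON5#1 values lay below all pCtrl values and overlapped with PBS. The log2 fold change was -0.60 ± 0.12 (SE, adjusted p = 0.0028) against pCtrl and -0.23 against PBS (95% interval -0.47 to 0.02, adjusted p = 0.37). Of its exon length, 16.0% is shared with a gene on the opposite strand, and the sources do not state whether the counting used strand. The corresponding overlap was 1.62% for Cacna1h (opposite strand), 3.88% for Cacng8 (same strand) and 0% for Cacna1c.

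**Figure D3:**
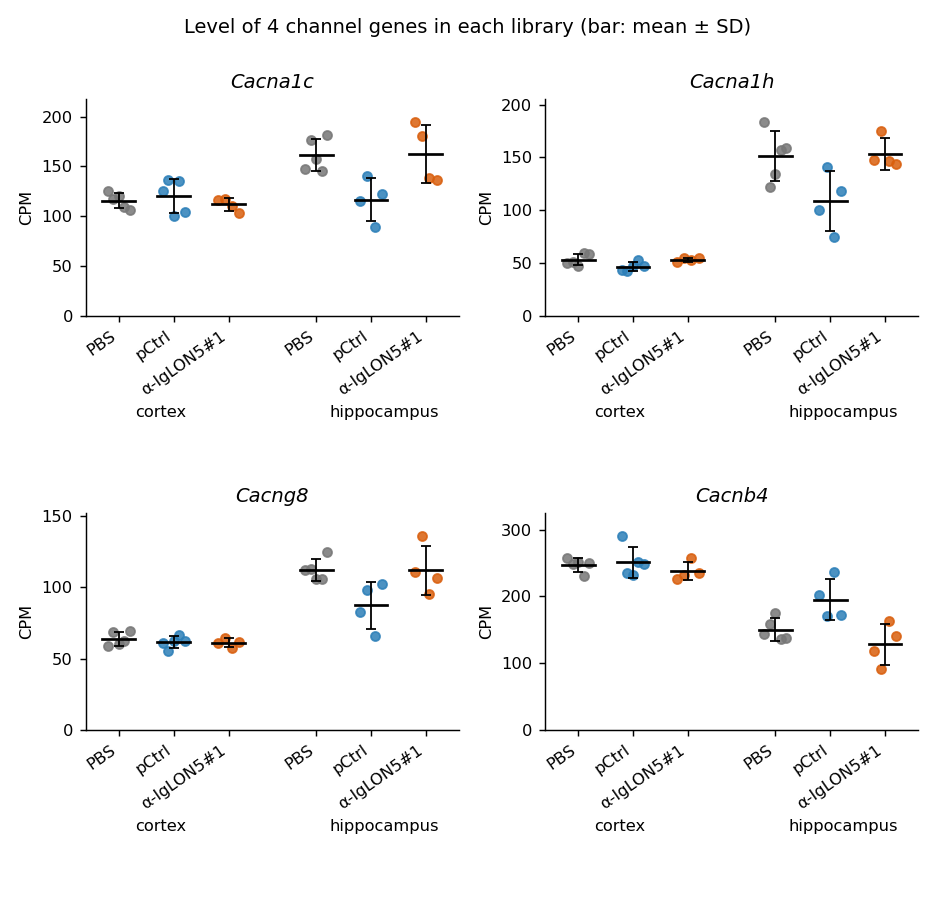
Level in CPM of Cacna1c, Cacna1h, Cacng8 and Cacnb4 in each of the 27 libraries by tissue and treatment (points: libraries; bars: mean ± SD). In hippocampus the pCtrl points sit low for Cacna1c, Cacna1h and Cacng8 and high for Cacnb4 relative to PBS, while in cortex the 3 treatments overlap.

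Each of the 4 genes also differed between cortex and hippocampus in PBS mice, and in each the mean of the pCtrl hippocampi lay on the cortical side of that of the PBS hippocampi. The single libraries of these groups did not overlap for Cacna1c and Cacng8 but did for Cacna1h and Cacnb4. The log2 fold changes of pCtrl against PBS hippocampi were -0.47 for Cacna1c, -0.48 for Cacna1h, -0.36 for Cacng8 and 0.38 for Cacnb4, with adjusted p between 0.069 and 0.11 by edgeR. This comparison and that of α-IgLON5#1 with pCtrl share the pCtrl libraries. In pCtrl against PBS hippocampi edgeR called 0 of 38 genes (background 0.192%), with 16 at an unadjusted p under 0.05 (background 14%), while DESeq2 called 5 (background 2.66%), all lower in pCtrl: Cacna1c, Cacna1h, Cacnb2, Cacng8 and Scn7a. Leaving out pCtrl mouse 15 raised the edgeR count from 0 to 12, leaving out pCtrl mouse 75 gave 2 and leaving out PBS mouse 38 gave 1. The composition scores of mice 15 and 75 were close, at -0.80 and -0.68. The part of composition in these counts was not tested.

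With the composition score of each library as a covariate, none of the 38 genes was called in α-IgLON5#1 against pCtrl hippocampi, while 1.01% of all genes were. The log2 fold change then was 0.30 for Cacna1c (adjusted p = 0.46), 0.16 for Cacna1h (adjusted p = 0.65), 0.05 for Cacng8 (adjusted p = 0.865) and -0.29 for Cacnb4 (95% interval -0.51 to -0.08, adjusted p = 0.28). The score itself differed between these groups, from -0.80 to 0.78 in pCtrl and from -1.60 to -0.73 in α-IgLON5#1 hippocampi. Composition and treatment therefore cannot be told apart by this fit. Against PBS the same covariate moved Cacnb4 to -0.28 with an adjusted p of 0.0485, the only gene called there (background 5.02%). Without the pCtrl hippocampi of mice 10 and 37, an alternative chosen after their scores were seen, 0 genes were called against pCtrl (background 1.21%) and Cacnb4 was at -0.41 (adjusted p = 0.205). Leaving out mouse 10 or mouse 37 alone left Cacnb4 as the 1 gene called. The count was also 1 without α-IgLON5#1 mouse 9 (Cacnb4) and 2 without α-IgLON5#1 mouse 8 (Cacna1h and Cacnb4), and 6 without pCtrl mouse 15 or α-IgLON5#1 mouse 16.

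**Figure D4:**
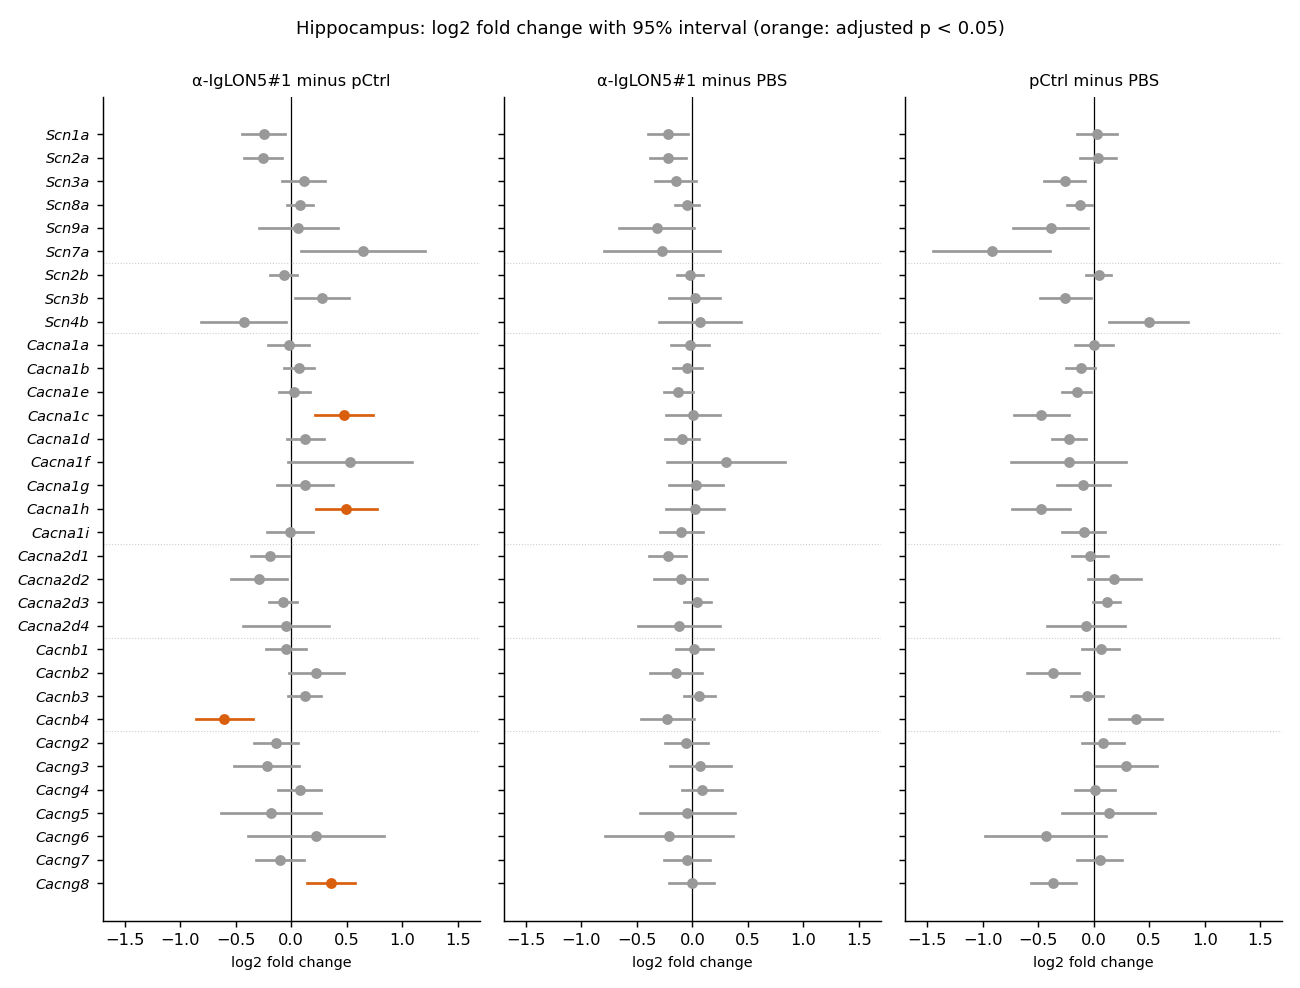
Log2 fold changes (points) with 95% intervals (lines) of 33 channel genes between the 3 treatments in hippocampus, with genes at an adjusted p under 0.05 in orange. The 4 genes called against pCtrl lie at -0.23 to 0.02 in the panel against PBS and on the opposite side of 0 in the panel of pCtrl against PBS.

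Among the other pores in hippocampi, Scn2a was at 340.1, 325, 385 and 313 CPM in α-IgLON5#1, at 422, 400.4, 434 and 371 CPM in pCtrl and at 336 to 455 CPM in PBS. The groups overlapped, and the log2 fold change was -0.26 against pCtrl (adjusted p = 0.056) and -0.22 against PBS (adjusted p = 0.13). Scn1a was at -0.25 against pCtrl and -0.22 against PBS (adjusted p = 0.10 and 0.19). Both genes had negative values against each control without passing the test in either, in comparisons that share the α-IgLON5#1 libraries. Scn2a was called against PBS when PBS mouse 14 or α-IgLON5#1 mouse 16 was left out, and Cacna2d1 when PBS mouse 38 was left out. Scn8a (0.08), Scn3a (0.11), Cacna1a (-0.02), Cacna1b (0.07), Cacna1d (0.13), Cacna1e (0.03), Cacna1g (0.13) and Cacna1i (-0.01) had 95% intervals within 1.5-fold against pCtrl. The 8 neuronal markers were at 6781 to 7365 CPM in α-IgLON5#1 hippocampi, 7347 to 8367 CPM in pCtrl and 7211 to 8082 CPM in PBS, while the 6 microglial markers were at 406 to 734, 269 to 308 and 243 to 296 CPM. Their part in the channel values was not tested.

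Among the auxiliary subunits that the study found in IgLON5 clusters, Scn2b, Scn3b, Cacna2d1, Cacna2d2 and Cacna2d3 were not called in any comparison of treatments. This holds for the main fit, while Scn3b was called in 1 of 16 alternative fits of α-IgLON5#1 against pCtrl hippocampi. Sodium channel β subunits are also adhesion molecules, and α2δ subunits bring calcium channels to the synapse and bind the drug gabapentin. Scn2b was at 279, 273, 292 and 308 CPM in α-IgLON5#1 hippocampi, 308, 287, 324 and 288 CPM in pCtrl and 272 to 322 CPM in PBS, and the 3 groups overlapped. Its log2 fold change was -0.07 (95% interval -0.19 to 0.05) against pCtrl and -0.02 (-0.14 to 0.09) against PBS, and that of Scn3b 0.28 (0.03 to 0.52, adjusted p = 0.16) and 0.02 (-0.21 to 0.25).

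Cacna2d1 was at 198, 220, 246 and 228 CPM in α-IgLON5#1 hippocampi, 236, 274, 259 and 248 CPM in pCtrl and 216 to 276 CPM in PBS. The groups overlapped, at a log2 fold change of -0.19 (95% interval -0.36 to -0.02, adjusted p = 0.18) against pCtrl and -0.22 (-0.39 to -0.06, adjusted p = 0.13) against PBS. Cacna2d2 was at 29.7 to 36.2 CPM in α-IgLON5#1 and 37.5 to 46.8 CPM in pCtrl hippocampi, which did not overlap, but at 29.2 to 48.0 CPM in PBS. Its log2 fold change was -0.29 (-0.54 to -0.04, adjusted p = 0.15) against pCtrl and -0.10 (-0.34 to 0.13) against PBS. Cacna2d3 was at -0.07 (-0.20 to 0.06) and 0.04 (-0.08 to 0.17). The signs of Scn2b and Cacna2d3 against pCtrl were turned by the composition covariate (0.06 for each).

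**Figure D5:**
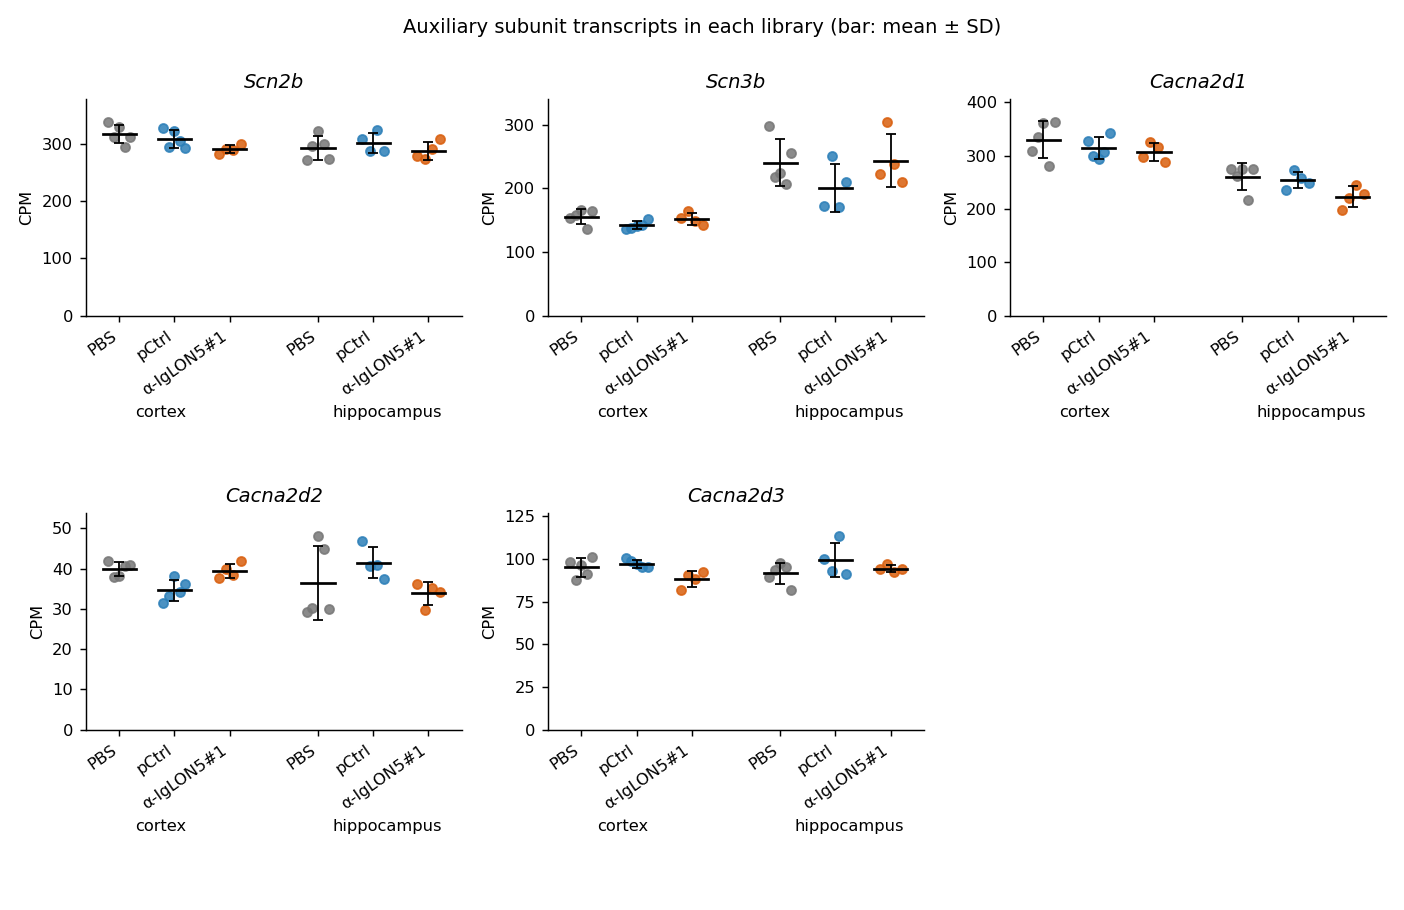
Level in CPM of Scn2b, Scn3b, Cacna2d1, Cacna2d2 and Cacna2d3 in each of the 27 libraries (points: libraries; bars: mean ± SD). In hippocampus the α-IgLON5#1 libraries overlap with PBS for all 5 genes, and in cortex Cacna2d3 of α-IgLON5#1 lies below that of pCtrl.

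In cortex, α-IgLON5#1 against pCtrl gave 0 calls among the 38 genes by edgeR, with 7 at an unadjusted p under 0.05 (background 15.4%), while 3.46% of all genes were called. DESeq2 called 1 (background 4.53%). Scn4b was at 22.6, 24.7, 22.5 and 26.54 CPM in α-IgLON5#1, 29.5 to 38.5 CPM in pCtrl and 26.55 to 32.2 CPM in PBS cortices. It lay below both controls in every library, in the case of PBS by the second decimal, but its log2 fold change of -0.49 against pCtrl (adjusted p = 0.13) and -0.24 against PBS (adjusted p = 0.77) did not pass the test. Cacna2d3 (-0.14, adjusted p = 0.23) and Cacna1i (-0.20, adjusted p = 0.31) also lay below pCtrl in every library, and Cacna1e (0.15) and Cacna1s (0.77) above it, and in all 4 genes were below (background 2.67%) and 2 above (background 3.68%). Without pCtrl mouse 75 the count was 2, and without α-IgLON5#1 mouse 16 it was 1 (Cacnb3). In pCtrl against PBS cortices 0 genes were called by edgeR (background 0%) and by DESeq2, with 4 at an unadjusted p under 0.05 (background 8.14%).

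The difference between the hippocampal and the cortical effect of α-IgLON5#1 against pCtrl was tested as an interaction. Neither edgeR nor DESeq2 called any of the 38 genes (0 calls each; background 0% by edgeR and 0.178% by DESeq2), with 5 channel genes at an unadjusted p under 0.05 (background 10.6%). The interaction was 0.58 for Cacna1c (95% interval 0.22 to 0.93, adjusted p = 0.25), -0.52 for Cacnb4 (-0.87 to -0.17, adjusted p = 0.26), 0.37 for Cacng8 (0.07 to 0.67, adjusted p = 0.34) and 0.31 for Cacna1h (-0.08 to 0.69, adjusted p = 0.58) on the log2 scale. The 4 hippocampal differences are therefore not shown to be particular to the hippocampus.

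Of 27 genes for proteins that bind or anchor these channels, 2 were called in α-IgLON5#1 against pCtrl hippocampi, both lower, beside 7.01% of all genes called and 2.78% called lower. These were Fgf12, an intracellular partner of sodium channels (log2 fold change -0.64, adjusted p = 0.0031), and Rims2, an active zone protein that binds calcium channels (-0.34, adjusted p = 0.030). Both were higher in PBS cortex than in PBS hippocampus (0.78 and 0.52). Against PBS hippocampi another 2 were lower, beside 4.29% of all genes called and 0.474% called lower. They were Fgf14, a further sodium channel partner (-0.33, adjusted p = 0.010), and Unc80, a subunit of the sodium leak channel complex (-0.21, adjusted p = 0.046). These did not pass the test between PBS cortex and hippocampus (0.08 and 0.02). In cortex 0 of the 27 were called against either control by edgeR, with 4 against pCtrl (background 15.4%) and 1 against PBS (background 9.26%) at an unadjusted p under 0.05.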

How the data were processed

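Bulk RNA of 14 cortices and 13 hippocampi was sequenced as stranded, paired-end mRNA libraries. The authors aligned the reads with STAR to GRCm38 and deposited raw counts per Ensembl gene. The counting program, the annotation and the strand setting were not given in the sources used here. Of the 55487 row identifiers, 55227 matched GENCODE M21 without their version, and exon lengths were taken from it. Groups came from the labels. A gene entered the test when 4 or more libraries held 10 or more of its counts, and 1 model of all 27 libraries in 6 groups was fitted with edgeR 4.0.16 (TMM normalization, quasi-likelihood test, Benjamini-Hochberg adjustment over 20271 genes, threshold 0.05). Intervals are 95% intervals from the standard error and 21 residual degrees of freedom. The scripts were tested on simulated data. Totals of at least 19385642 counts leave only the rarest channel genes limited by counting.

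The channel genes, the list of channel partners and the marker lists were chosen with earlier results of these data known. Results that rest on some of the channel genes are not reported here. Those given library by library are the genes called between treatments, the auxiliary subunits of the IgLON5 clusters and the largest tissue differences. Scn4b, Cacna1e, Cacna1i, Cacna1s, Cacnb3 and Cacna1f in the treatment comparisons were named after their values were seen. Alternatives were DESeq2 1.42.0, RLE size factors, other count filters, fits of only the groups compared or only mice 8 to 17, the composition score as a covariate, mouse as a block, and leaving out each library. The main fit did not use the pairing of tissues by mouse. Cortex and hippocampus were paired only in the alternative with mouse as a block, because same-numbered samples came from the same animal. The deviations of the paired tissues from their group means correlated between -0.118 and 0.622 (median 0.273, above 0.1 in 10 of 13 mice). No columns of the authors' own comparisons were used.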

Additional observations from a re-analysis of the deposited data

Results flagged for a closer look

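Among 150 sets of a gene and a group, taken over 25 named genes, 9 held 1 library that stood apart from the others of its group, and chance gives about 1 in 20. Levels are in CPM. In cortex, Cacna1g was 132 in pCtrl mouse 37 against 88.8 to 101 in the other pCtrl mice. Cacna1a was 215 in α-IgLON5#1 mouse 16 against 176 to 182, Cacng3 was 159 in the same mouse against 103 to 108, and Scn10a was 0.190 in α-IgLON5#1 mouse 8 against 0.305 to 0.325. Cacna1i was 124 in PBS mouse 14 against 103 to 107, and Scn9a was 3.90 in PBS mouse 33 against 4.76 to 4.95. In hippocampus, Cacna2d1 was 216 in PBS mouse 38 against 261 to 276, Cacna1h was 175 in α-IgLON5#1 mouse 9 against 144 to 147, and Scn10a was 0.153 in α-IgLON5#1 mouse 16 and at 0 counts in the other 3 mice.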

How the results depend on the processing

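The number of channel genes called in α-IgLON5#1 against pCtrl hippocampi was 4. It became 0 with only the groups compared, with the composition covariate, with only mice 8 to 17, with a fold above 2 and without the pCtrl hippocampi of mice 10 and 37, and ran from 1 to 6 when single libraries were left out. Cacnb4 was called in each of those. Without a count filter Cacng8 was at 0.32 (adjusted p = 0.072). Against PBS the hippocampal count went from 0 to 1 with the covariate and from 0 to 1 over single libraries, and pCtrl against PBS from 0 to 5 with DESeq2 and from 0 to 12 over single libraries. In cortex the count against pCtrl went from 0 to 1 with DESeq2 and with only the groups compared (Scn4b), and from 0 to 2 over single libraries, while those against PBS stayed at 0. The counts between tissues were 5, 2 and 3 above 2-fold for PBS, pCtrl and α-IgLON5#1 mice (3, 2 and 1 without Scn10a and Scn11a, which passed the count filter through cortex), ran over 20 to 25, 16 to 22 and 16 to 21 over single libraries, and with mouse as a replicate block, the paired fit, were 25, 22 and 18, with 0 for the interaction. The block moved no count by over 1.5 times. Of the auxiliary subunits, uncalled values changed sign for Scn2b and Cacna2d3 in hippocampus against pCtrl with the covariate (0.0634 and 0.0587) and without mice 10 and 37 (0.00519 and 0.0401), and in cortex for Scn3b with the covariate (-0.0581) and Cacna2d1 with mice 8 to 17 (0.00535). Of the 4 genes called in hippocampus, the covariate turned Cacna1h (-0.0103) and Cacnb4 (0.0971) in cortex against pCtrl, and Cacna1h (0.00432), Cacng8 (0.107) and Cacnb4 (-0.142) in cortex of pCtrl against PBS mice, and their other sign changes were of values of at most 0.0208 in size. Apart from the smaller samples, the cause was not tested.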
